A study of Mus musculus with 6 samples.

Results

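The phase II conjugation enzymes were examined as the glutathione *S*-transferases (*Gsta*, *Gstm*, *Gstp*, *Gstt*, *Gstk*, *Gsto*, *Gstz* and the microsomal *Mgst* genes), the UDP-glucuronosyltransferases (*Ugt1*, *Ugt2* and *Ugt3*) and the sulfotransferases (*Sult*), taken by gene symbol. In all, 63 of the 23282 genes in the count files carried such a symbol, and 48 of them had 10 or more counts in at least 3 libraries and were tested, among 14306 tested genes. The data are RNA-sequencing counts of whole liver from mice that the labels give as C57BL/6 (C57BL/6N in the study's methods) and aged 12 weeks, with 3 wild-type libraries (labelled 7-2, 8-1 and 8-3) and 3 knockout libraries (7-2, 7-3 and 8-3). The wild-type mice were Tcf7l2 f/f littermates, so both groups carried the floxed exon 5 alleles, and the knockout mice were Alb-Cre;Tcf7l2 f/f, in which the albumin promoter drives Cre recombinase in hepatocytes. All mice had fasted for 24 h and had then eaten normal chow for 24 h. The comparison asks how loss of hepatic *Tcf7l2*, a transcription factor of the Wnt pathway, altered these transcripts under refeeding.

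Phase II enzymes attach a polar group to drugs, toxins, steroids, bilirubin and bile acids, so that the products can be exported in bile or urine. Glutathione *S*-transferases join glutathione to electrophiles, UDP-glucuronosyltransferases transfer glucuronic acid from UDP-glucuronate, and sulfotransferases transfer sulfate from the donor 3′-phosphoadenosine-5′-phosphosulfate (PAPS). In the liver lobule, glutathione conjugation and glucuronidation are known to be more active around the central vein, where Wnt signalling is strongest, and sulfation around the portal tract.

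The libraries held 60619938 to 133384586 counts, and *Mup* genes (20 genes named Mup and a digit, encoding abundant urinary proteins) took 31.7% to 54.3% of the counts of wild-type libraries and 18.5% to 28.7% of those of knockout libraries. Levels are therefore given as normalised read counts (CPM, counts per 1e6 counts) over library sizes scaled by the trimmed mean of M values (TMM). *Tcf7l2* itself was at 4.88, 6.12 and 6.85 CPM in wild-type libraries and 3.31, 2.74 and 3.33 CPM in knockout libraries. These groups did not overlap, and the log2 fold change of knockout over wild type was −0.93 (SE 0.19), which missed the threshold with edgeR (adjusted *p* = 0.0837) and passed it with DESeq2 (adjusted *p* = 0.00286). Counts were per gene, so reads from other exons and other liver cells are part of this value, and the share of each was not tested. In bulk tissue, fewer cells of a type and less RNA per cell cannot be told apart. Of 9 hepatocyte markers tested 0 were called with edgeR (1 lower at an unadjusted *p* under 0.05, and 1 lower with DESeq2). The summed level of the list was 59922 to 84395 CPM in knockout and 70409 to 76465 CPM in wild-type libraries. The 5 kidney and 4 adipose markers together stayed below 0.2 CPM in every library. Intestine markers summed to 84.2 to 94.7 CPM in wild-type and 85.3 to 107 CPM in knockout libraries, mainly *Fabp2* (means 87.1 and 92.2 CPM). Every other intestine marker was at 0.813 CPM or below in every library. Pancreatic acinar markers summed to 4.18 to 5.15 and 3.74 to 5.53 CPM, mainly *Cela1*, with each of the others at 0.271 CPM or below in every library.

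*Gstm2*, a mu-class glutathione *S*-transferase, was the only conjugation enzyme that changed at an adjusted *p* under 0.05 with edgeR, and it fell. The count was 1 of 48 lower, against 0.37% of all tested genes, and 0 of 48 higher, against 0.0699%. DESeq2 called 4 members, *Gstm2* and *Gstm3* lower (2 of 48, against 1.71% of all genes) and *Sult1c2* and *Sult2a8* higher (2 of 48, against 1.38%). At an unadjusted *p* under 0.05, edgeR found 5 lower (6.72% of all genes) and 4 higher (6.57%), so that the members' shares were near those of all genes. Every knockout library lay below every wild-type library for 3 members (9.05% of all genes) and above for 5 (10.1%), again close to the background.

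Below the level of single genes, the classes leaned different ways. Of the 21 glutathione *S*-transferases tested, 20 had a log2 fold change below 0 and the median was −0.25, whereas 17 of the 19 UDP-glucuronosyltransferases lay above 0 with a median of 0.21. Among all tested genes 52.0% lay below 0, and the median was −0.02. The 8 sulfotransferases tested were split, with 5 below 0 and 3 above. Few of these differences stood out gene by gene, with 5 lower and 4 higher of the 48 members at an unadjusted *p* under 0.05 (edgeR). Standard errors were 0.13 to 0.94 with a median of 0.19 over the 48 members.

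**Figure D1:**
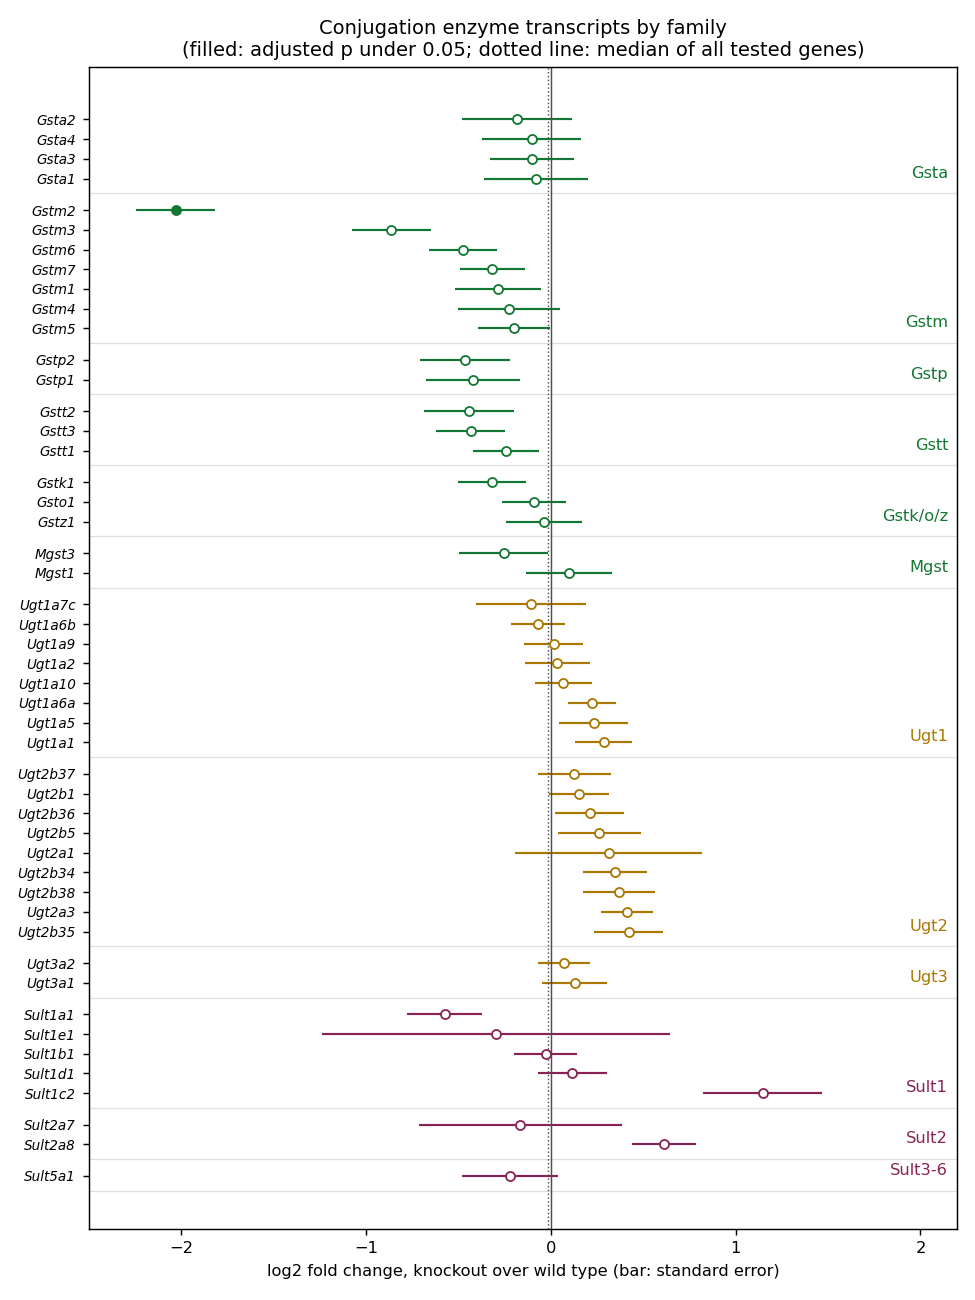
Log2 fold change of knockout over wild type (x axis) for the 48 tested conjugation enzymes, grouped by family, with bars for the standard error. The filled point, *Gstm2* at −2.03, is the only one past an adjusted *p* of 0.05; the *Gst* families lie mostly left of 0 and the *Ugt2* genes right of 0.

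The promoters of the 4 members called by either tool are shown first, since these are the genes on which the results turn. Each is the RefSeq window from 250 bases before to 50 bases after the transcription start in GRCm38.p6, read 5′ to 3′ on the gene's own strand. Capitals mark the TCF/LEF motifs CTTTGAT and CTTTGAA, searched on both strands, and the antioxidant response element core TGACNNNGC was searched as well. The windows lie at chr3:107986371-107986670 (*Gstm2*), chr3:107969125-107969424 (*Gstm3*), chr17:53845909-53846208 (*Sult1c2*) and chr7:14446538-14446837 (*Sult2a8*, the first of its windows), all on the minus strand.
Gstm2: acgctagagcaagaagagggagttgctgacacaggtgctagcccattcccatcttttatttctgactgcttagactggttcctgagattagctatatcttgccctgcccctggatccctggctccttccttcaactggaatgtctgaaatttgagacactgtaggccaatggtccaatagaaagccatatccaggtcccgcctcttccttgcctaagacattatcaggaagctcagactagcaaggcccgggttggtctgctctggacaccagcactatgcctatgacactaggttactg
Gstm3: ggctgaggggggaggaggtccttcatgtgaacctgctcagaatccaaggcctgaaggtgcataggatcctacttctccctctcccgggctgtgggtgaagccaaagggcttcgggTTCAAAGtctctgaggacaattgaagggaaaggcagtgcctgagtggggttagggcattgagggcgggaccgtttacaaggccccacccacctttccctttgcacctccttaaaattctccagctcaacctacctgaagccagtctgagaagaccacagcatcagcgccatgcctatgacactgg
Sult1c2: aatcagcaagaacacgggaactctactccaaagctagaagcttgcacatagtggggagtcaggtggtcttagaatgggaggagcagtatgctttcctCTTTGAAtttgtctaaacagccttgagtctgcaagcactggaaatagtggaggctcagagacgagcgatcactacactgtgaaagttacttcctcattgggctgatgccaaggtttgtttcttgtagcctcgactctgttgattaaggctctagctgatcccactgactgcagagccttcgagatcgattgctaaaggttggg
Sult2a8: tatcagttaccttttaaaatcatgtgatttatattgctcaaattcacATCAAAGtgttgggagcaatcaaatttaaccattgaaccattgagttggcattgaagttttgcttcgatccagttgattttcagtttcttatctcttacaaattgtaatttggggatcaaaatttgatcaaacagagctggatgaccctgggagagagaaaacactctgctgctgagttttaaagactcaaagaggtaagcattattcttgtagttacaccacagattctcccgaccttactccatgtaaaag

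None of the motifs is in the *Gstm2* window, the gene with the strongest fall. The *Gstm3* window holds CTTTGAA on the opposite strand, with its first base 135 bases before the start, and the *Sult1c2* window holds it on the gene's strand 153 bases before the start. The *Sult2a8* window holds CTTTGAT on the opposite strand 203 bases before the start, and its other window holds none. Such matches are a description of letters and not of binding. Of all 32851 RefSeq windows, 3.73% hold CTTTGAT, 5.14% CTTTGAA and 12.4% TGACNNNGC. Among the 43 tested members with a window, 1, 5 and 4 hold them, respectively. Counted by window, as for all genes, the shares were 1.89%, 9.43% and 7.55% of the 53 windows of these members.

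The mu class (*Gstm1* to *Gstm7*) is a cluster of 7 genes on chromosome 3, and all 7 passed the filter on low counts. The log2 fold changes of all 7 lay below 0, from −2.03 to −0.20 with a median of −0.31. *Gstm2* (NM_008183, chr3:107981702-107986420) was at 47.3, 56.7 and 49.2 CPM in wild-type libraries and at 12.1, 16.3 and 9.08 CPM in knockout libraries. Every knockout library was far below the lowest wild-type library. The level averaged 51.1 ± 4.95 CPM (SD, *n*=3) against 12.5 ± 3.64 CPM, with a log2 fold change of −2.03 (SE 0.22, 95% interval −2.51 to −1.55, edgeR adjusted *p* = 0.00322). An exact two-sided permutation test of the CPM gave *p* = 0.1, which is the smallest that 3 against 3 libraries allow.

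The fall of *Gstm2* could also be read without any scaling, by dividing its counts by those of its neighbour *Gstm1* in the same library. There were 50.03, 77.1 and 74.9 counts of *Gstm2* per 1000 counts of *Gstm1* in wild-type libraries and 17.4, 21.8 and 19.2 in knockout libraries. The groups were again apart, so the genes of the cluster did not move by an equal factor. Of the 50-base stretches of the *Gstm2* transcript 1.06% occur in another gene, and of those of *Gstm1* 10.1%, mainly in *Gstm3*, and the part of such shared reads in the ratio was not tested.

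*Gstm3* (NM_010359, chr3:107963696-107969174) lies next to *Gstm2* in the cluster. It was at 61.7, 42.4 and 44.4 CPM in wild-type and 29.8, 31.6 and 20.3 CPM in knockout libraries. The groups did not overlap, but the wild-type library 7-2 stood well above the others. The log2 fold change of −0.86 (SE 0.21, 95% interval −1.34 to −0.39) missed the threshold with edgeR (adjusted *p* = 0.138) and passed it with DESeq2 (adjusted *p* = 0.00829). Of the 50-base stretches of the *Gstm3* transcript, 15.9% occur in another gene, mainly *Gstm1*.

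*Gstm6* had 57.9, 50.3 and 47.1 CPM in wild-type libraries and 39.6, 43.7 and 28.5 CPM in knockout libraries, also without overlap (log2 fold change −0.47, SE 0.19, adjusted *p* = 0.314). *Gstm1*, the member of the cluster with the highest level per length (564 CPM per kilobase of transcript in wild type and 463 in knockout), had groups that overlapped. It was at 945, 734 and 657 CPM in wild-type and 696, 747 and 474 CPM in knockout libraries, and its 95% interval ran from −0.81 to 0.23. *Gstm4*, *Gstm5* and *Gstm7* had log2 fold changes of −0.23, −0.20 and −0.31 with overlapping groups. Thus the called change stood at *Gstm2*, with smaller negative values on both sides of it along the chromosome.

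**Figure D2:**
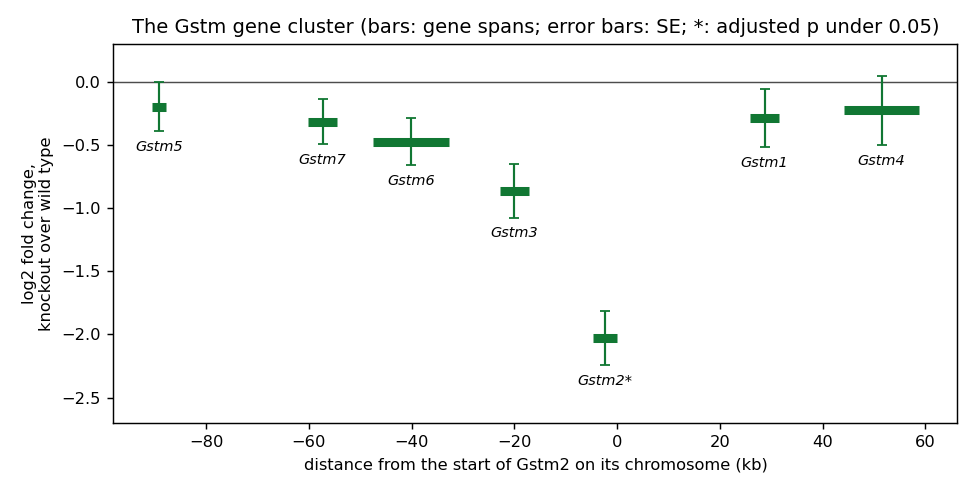
Log2 fold change of knockout over wild type (y axis, error bars SE) for the 7 *Gstm* genes against their distance in kilobases from the start of *Gstm2* (x axis, thick bars span each gene). *Gstm2* is at −2.03 and its neighbour *Gstm3* at −0.86, while the other 5 lie between −0.47 and −0.20.

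The alpha class (*Gsta1* to *Gsta4*), which conjugates products of lipid peroxidation and epoxides, had log2 fold changes of −0.18 to −0.08, and 0 of the 4 were called with edgeR or DESeq2 or had an unadjusted *p* under 0.05. *Gsta3*, the alpha-class gene with the highest level per length, was at 1424, 918 and 1167 CPM in wild-type and 1071, 1269 and 928 CPM in knockout libraries. The knockout range lay inside the wild-type range, and the 95% interval of −0.61 to 0.40 leaves room for a moderate change either way. *Gsta1* and *Gsta2* share 88.7% and 60.5% of their 50-base stretches with other genes, so their counts are uncertain, since the deposited counts include reads that align to several places.

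The pi class had a median of −0.44. *Gstp1*, the most abundant conjugation enzyme per length in wild-type liver (961 CPM per kilobase), was at 1167, 702 and 736 CPM in wild-type and 638, 790 and 518 CPM in knockout libraries. The groups overlapped, and the log2 fold change of −0.42 (SE 0.25) had an adjusted *p* of 0.4996. *Gstp2* was similar (−0.46), but 63.5% of its 50-base stretches are shared with *Gstp1*, so the pair gives close to one measurement. Without the wild-type library 7-2, *Gstp1* was at −0.15, and over the libraries left out in turn *Gstp2* ran from −0.64 to −0.21.

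In the theta class, *Gstt3* was at 12.8, 8.29 and 11.7 CPM in wild-type and 8.80, 7.25 and 8.20 CPM in knockout libraries. The lowest wild-type library lay among the knockout libraries, and the log2 fold change was −0.43 (SE 0.19, unadjusted *p* = 0.0422, edgeR adjusted *p* = 0.357). Of its 50-base stretches, 25.9% also occur in the gene *Gm20441*. *Gstt1*, the theta gene with the highest level per length, had −0.24 (SE 0.18), and *Gstt2* −0.44 (SE 0.24).

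Among the remaining classes, *Gstz1*, the maleylacetoacetate isomerase of tyrosine breakdown, averaged 358 ± 79.6 CPM in wild-type libraries (SD, *n*=3) against 349 ± 36.1 CPM without *Tcf7l2*, with a 95% interval of −0.50 to 0.43. *Gstk1*, a mitochondrial and peroxisomal form, had −0.32 (SE 0.19), and *Gsto1* −0.09 (SE 0.17). The microsomal enzyme *Mgst1* was the only one of the 21 with a value above 0. It averaged 848 ± 90.2 CPM in wild-type libraries against 908 ± 251 CPM in the knockout group, whose values of 904, 1161 and 659 CPM lay on both sides of the wild-type ones. *Mgst3* had −0.25 (SE 0.24).

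The UDP-glucuronosyltransferases showed many small positive differences, with 0 of 19 called by edgeR or DESeq2 and 2 higher at an unadjusted *p* under 0.05. All 9 tested *Ugt2* genes lay above 0, with a median of 0.31 and a range of 0.13 to 0.42. *Ugt2a3* was at 62.5, 59.8 and 61.8 CPM in wild-type and 77.2, 80.2 and 87.6 CPM in knockout libraries. The wild-type values were close together and every knockout library was above them, but the log2 fold change of 0.41 (SE 0.14, 95% interval 0.10 to 0.73) did not pass the correction over all genes (unadjusted *p* = 0.0153, edgeR adjusted *p* = 0.256, DESeq2 adjusted *p* = 0.118).

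*Ugt2b35* was at 57.4, 36.7 and 46.8 CPM in wild-type and 56.7, 69.3 and 62.7 CPM in knockout libraries. Here the wild-type library 7-2 overlapped the knockout group (log2 fold change 0.42, SE 0.19, adjusted *p* = 0.372). *Ugt2b5*, a steroid- and xenobiotic-conjugating enzyme with the highest level per length in the family (120 CPM per kilobase in wild type and 144 in knockout), was at 403, 247 and 243 CPM in wild-type and 327, 385 and 359 CPM in knockout libraries. The wild-type library 7-2 was the highest of the 6, and the 95% interval was −0.24 to 0.77. *Ugt2b5*, *Ugt2b37* and *Ugt2b38* share 31.0%, 18.3% and 37.4% of their 50-base stretches with other genes, and *Ugt2a1* shares 96.9%, so the 9 *Ugt2* values are not separate measurements.

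The *Ugt1* genes are made from one locus on chromosome 1, by joining alternative first exons to common later exons. Their transcripts share 61.0% to 83.6% of their 50-base stretches with other genes, and how the counting assigned reads from the common exons is not given in the sources used here. Log2 fold changes ran from −0.11 to 0.29 with a median of 0.05. *Ugt1a1*, which conjugates bilirubin, was at 46.1, 33.8 and 41.9 CPM in wild-type and 49.5, 49.2 and 49.7 CPM in knockout libraries. All knockout libraries were above the wild-type ones, at a log2 fold change of 0.29 (SE 0.16, edgeR adjusted *p* = 0.457). *Ugt1a6a* was likewise apart at 0.22 (SE 0.13), and *Ugt1a10* had 0.07 (SE 0.15). *Ugt1a1* and *Ugt1a6a* were added after their values were seen, to name the members whose groups were apart.

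The 2 *Ugt3* genes, which use other sugar nucleotides than UDP-glucuronate, had 0.07 (*Ugt3a2*) and 0.13 (*Ugt3a1*). *Ugt3a2* was held within a narrow range in all 6 libraries, at 106, 110.5 and 111 CPM in wild-type and 111, 116 and 117 CPM in knockout libraries.

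The sulfotransferases included values well away from 0 in both directions. *Sult2a8* (NM_001199306, chr7:14410686-14446780), a bile acid sulfotransferase of mouse liver, was at 292, 230 and 231 CPM in wild-type and 372, 392 and 388 CPM in knockout libraries. Every knockout library was above every wild-type library, and the knockout values were close together. The log2 fold change was 0.61 (SE 0.17, 95% interval 0.23 to 1.00), which missed the threshold with edgeR (adjusted *p* = 0.176) and passed it with DESeq2 (adjusted *p* = 0.0141). None of its 50-base stretches occurs in another gene.

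*Sult1c2* (NM_026935, chr17:53829637-53845958) had a low level, with 0.888, 0.620 and 1.12 CPM in wild-type and 2.63, 1.61 and 1.56 CPM in knockout libraries. These rest on 52 to 76 counts per wild-type library and 122 to 223 per knockout library. The groups did not overlap, and the log2 fold change of 1.15 (SE 0.32, 95% interval 0.43 to 1.87) had an adjusted *p* of 0.175 with edgeR and 0.0325 with DESeq2. Reads carried no molecular identifiers, so a count is a read and not a molecule.

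*Sult1a1*, the phenol sulfotransferase, had the highest level per length in its family (137 CPM per kilobase in wild type and 92.2 in knockout). It was at 143, 189 and 205 CPM in wild-type and 118, 144 and 99.4 CPM in knockout libraries. The groups overlapped by a single pair of libraries, since the wild-type library 7-2 was just below the knockout library 7-3. The log2 fold change was −0.57 (SE 0.20, 95% interval −1.03 to −0.12), with an unadjusted *p* of 0.0179 and an edgeR adjusted *p* of 0.264. Its difference was −0.13 between libraries labelled 7 and −0.99 between those labelled 8. The first rests on the wild-type library 7-2 alone on its side, and the second on the knockout library 8-3 alone. The labels do not say what these numbers mark, and other members differed between them too, such as *Ugt2b5* at −0.18 and 0.55. This split was not tested.

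*Sult1b1* and *Sult1d1* had −0.03 (SE 0.17) and 0.12 (SE 0.19). *Sult1e1*, the oestrogen sulfotransferase, held only 0 to 21 counts per library, *Sult2a7* 15 to 60, and their 95% intervals of −2.40 to 1.81 and −1.39 to 1.06 show nothing about either direction. *Sult5a1*, a sulfotransferase of low level, was at −0.22 (SE 0.26).

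**Figure D3:**
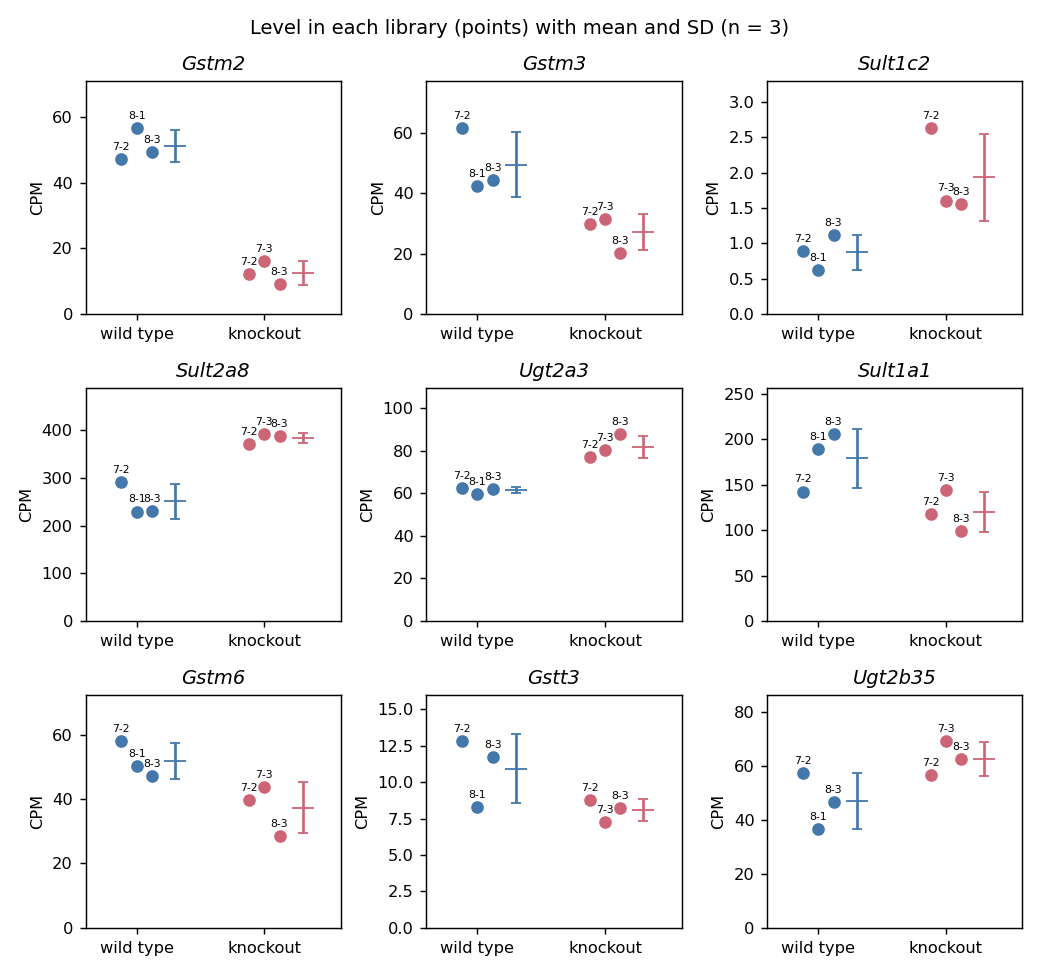
CPM in each library (y axis, linear from 0) for the 9 members with an unadjusted *p* under 0.05, with points labelled by library and the mean and SD (*n*=3) beside them. The groups are far apart for *Gstm2* (47.3 to 56.7 against 9.08 to 16.3 CPM), apart for *Gstm3*, *Gstm6*, *Sult1c2*, *Sult2a8* and *Ugt2a3*, and overlapping for *Sult1a1*, *Gstt3* and *Ugt2b35*.

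The 15 members that were not tested were *Gsto2*, *Gstt4*, *Mgst2*, *Ugt2a2*, *Sult1c1*, *Sult2a1* to *Sult2a6*, *Sult2b1*, *Sult3a1*, *Sult4a1* and *Sult6b1*. Of these, 7 had 0 counts in all 6 libraries, among them *Sult3a1* and *Sult2a3* to *Sult2a6*. *Sult2a1* and *Sult3a1* are known for much higher levels in female than in male mouse liver. The labels give no sex, and the study's methods name male knockout mice and their littermates for its high-fat and high-carbohydrate diets. *Ddx3y*, a Y-linked gene, was at 20.5, 22.0 and 19.5 CPM in wild-type and 31.1, 28.3 and 33.5 CPM in knockout libraries. These groups did not overlap (log2 fold change 0.58, SE 0.14, adjusted *p* = 0.124 with edgeR and 0.0179 with DESeq2). The Y-linked genes *Uty*, *Kdm5d* and *Eif2s3y* had log2 fold changes of 0.28, 0.12 and 0.03, and were also detected in all 6 libraries. *Xist*, a transcript of female cells, was at 0.286, 0.060 and 0.059 CPM in wild-type libraries. In knockout libraries it was at 0.059, 0.079 and 0.186 CPM, and it was too low to be tested. By these transcripts all 6 libraries read as male. No tested member passed the filter through 1 genotype alone.

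The levels were also summed over each class, with no test. Summed *Gst* and *Mgst* levels were 6266, 4447 and 4659 CPM in wild-type and 4487, 5357 and 3556 CPM in knockout libraries, with overlapping groups. Summed *Ugt* levels were 1539, 1187 and 1242 CPM in wild-type and 1426, 1591 and 1571 CPM in knockout libraries, overlapping through the wild-type library 7-2. Summed *Sult* levels were 517, 484 and 505 CPM in wild-type and 558, 623 and 557 CPM in knockout libraries, without overlap under this scaling. Within that sum the mean of *Sult2a8* went from 251 to 384 CPM and that of *Sult1a1* from 179 to 120.3 CPM. Dividing the *Gst* and *Mgst* sum by the *Ugt* sum removes the scaling. There were 4.07, 3.75 and 3.75 *Gst* and *Mgst* counts per *Ugt* count in wild-type libraries and 3.15, 3.37 and 2.26 in knockout libraries, so every knockout library was below every wild-type library. This ratio was chosen after the values were seen and was not tested. The knockout library 8-3 was the lowest of the 6.

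**Figure D4:**
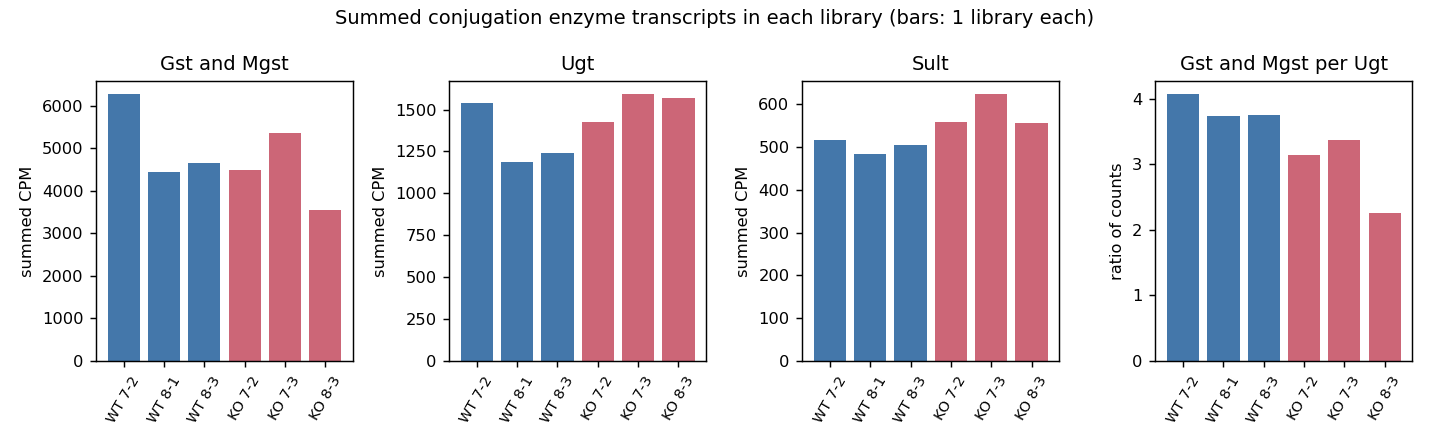
Summed CPM of the *Gst* and *Mgst*, *Ugt* and *Sult* genes and the ratio of *Gst* and *Mgst* counts to *Ugt* counts (y axes, from 0) in each library (x axis, blue wild type, red knockout, 1 bar per library). The first and second sums overlap between genotypes, whereas the *Sult* sum is 484 to 517 CPM in wild type and 557 to 623 in knockout, and the ratio is 3.75 to 4.07 against 2.26 to 3.37.

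The direction of the classes leaned on single libraries more than *Gstm2* did. Without the wild-type library 7-2, 13 of the 21 glutathione *S*-transferases lay below 0 in place of 20, and without the wild-type library 8-1, 12 of the 19 UDP-glucuronosyltransferases lay above 0 in place of 17. It also leaned on the scaling. With library sizes alone, the median of all genes moved to 0.61 and 19 of the 21 glutathione *S*-transferases, 5 of the 7 *Gstm* genes among them, lay above 0. Relative to the median of all genes, however, 1 of the 21, 0 of the 7 and 16 of the 19 UDP-glucuronosyltransferases lay above it under that scaling. *Gstm2* was called under each scaling and without each library in turn, with log2 fold changes of −2.27 to −1.84 and adjusted *p* of 0.00132 to 0.0209 when a library was left out (edgeR).

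The enzymes work on donors made elsewhere, and the genes of donor supply were read from lists. Over all tested genes, edgeR called 0.37% lower and 0.0699% higher, and DESeq2 1.71% and 1.38%. With edgeR, 0 of 13 tested genes of glutathione supply were called (1 lower at an unadjusted *p* under 0.05, and 0 with DESeq2). The median was −0.10, with 7 below 0 and 6 above. *Gclc*, the catalytic subunit of the rate-limiting ligase, was at 0.01 (SE 0.21). The 1 lower gene was *Ggct*, a γ-glutamylcyclotransferase, which does not make glutathione. It was at 5.39, 5.49 and 6.85 CPM in wild-type and 3.43, 3.96 and 4.39 CPM in knockout libraries (log2 fold change −0.59, SE 0.18, edgeR adjusted *p* = 0.205). *Gss*, glutathione synthetase, was at −0.47 (SE 0.22). All 6 genes listed for UDP-glucuronate supply and deconjugation lay above 0, with a median of 0.32. With edgeR 0 were called (2 higher at an unadjusted *p* under 0.05, *Ugp2* and *Ces1d*, and 1 with DESeq2). The list includes the carboxylesterases *Ces1d* at 0.68 (SE 0.30) and *Ces1f* at 0.37 (SE 0.23), which do not make UDP-glucuronate. *Gusb*, the glucuronidase, was at 0.17 (SE 0.16). *Ugp2*, which makes UDP-glucose, was at 184, 123 and 125 CPM in wild-type and 240, 268 and 246 CPM in knockout libraries, with no overlap (log2 fold change 0.80, SE 0.20, adjusted *p* = 0.137 with edgeR and 0.00445 with DESeq2). *Ugdh*, which oxidises it to UDP-glucuronate, was at 0.04 (SE 0.15). Of 8 genes of PAPS supply and desulfation 0 were called with edgeR or DESeq2 (2 higher at an unadjusted *p* under 0.05), with a median of −0.14. *Papss2*, which makes PAPS, had 0.40 (SE 0.17) and *Impad1*, a phosphatase, 0.48 (SE 0.17).

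Among 14 other conjugation enzymes 0 were called with edgeR, and 2 with DESeq2, both higher (1.38% of all tested genes). At an unadjusted *p* under 0.05 (edgeR) 1 was lower and 3 were higher, against 6.72% and 6.57% of all tested genes. *Hnmt*, the histamine methyltransferase, was at 16.6, 11.5 and 13.6 CPM in wild-type and 24.8, 28.8 and 24.3 CPM in knockout libraries. All knockout libraries were higher, and the log2 fold change of 0.90 (SE 0.17) had an adjusted *p* of 0.0628 with edgeR and 0.000503 with DESeq2. *Inmt*, an indolethylamine methyltransferase, had 0.64 (SE 0.18, adjusted *p* = 0.171 with edgeR and 0.0272 with DESeq2).

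Of 16 regulators of these families 0 were called with edgeR or DESeq2, with 1 lower and 1 higher at an unadjusted *p* under 0.05. *Ahr*, the aryl hydrocarbon receptor, was at 14.3, 16.5 and 17.7 CPM in wild-type and 6.25, 10.1 and 12.2 CPM in knockout libraries. The groups did not overlap, but the adjusted *p* was 0.198 with edgeR and 0.0559 with DESeq2 (log2 fold change −0.76, SE 0.23). *Arnt*, encoding its partner, went the other way, at 12.3, 16.5 and 14.1 CPM in wild-type and 22.9, 17.0 and 20.4 CPM in knockout libraries. These groups did not overlap either (log2 fold change 0.49, SE 0.17, adjusted *p* = 0.256 with edgeR and 0.165 with DESeq2). *Nfe2l2*, encoding NRF2, had 0.37 (SE 0.19), and of 10 NRF2 targets outside the families 0 were called with edgeR or DESeq2 and 0 had an unadjusted *p* under 0.05, with a median of 0.02. Of 7 exporters of conjugates 0 were called with edgeR or DESeq2 (1 lower and 1 higher at an unadjusted *p* under 0.05), with *Abcc3*, a basolateral exporter of glucuronides, at 0.59 (SE 0.21) and *Abcg2*, a canalicular one, at −0.40 (SE 0.18).

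Other features of the livers differed between the genotypes beside these values. They were read from lists chosen with earlier results of these data known. Of all tested genes, edgeR called 0.37% lower and 0.0699% higher, and DESeq2 1.71% and 1.38%. At an unadjusted *p* under 0.05 (edgeR) the shares were 6.72% and 6.57%. Of 20 pericentral genes 12 fell with edgeR and 15 with DESeq2, 0 rose with either or at an unadjusted *p* under 0.05, and the median was −2.05. Their summed level was 2809 to 3814 CPM in wild-type and 1203 to 1403 CPM in knockout libraries, and *Glul*, glutamine synthetase, had −2.55 (SE 0.19, edgeR adjusted *p* = 0.000263). Of 16 periportal genes 0 were called with edgeR (1 lower and 2 higher at an unadjusted *p* under 0.05, and 2 higher with DESeq2), with a median of 0.23. Stellate markers summed to 66.2 to 83.4 CPM in wild-type and 106 to 109 CPM in knockout libraries, and endothelial markers to 91.0 to 102 and 116 CPM. Kupffer cell markers summed to 80.0 to 96.7 and 64.5 to 80.3 CPM, cholangiocyte markers to 37.8 to 60.4 and 36.0 to 41.5 CPM, and 0 genes of these 4 lists were called with edgeR. DESeq2 called 3 of the 11 stellate markers higher, and at an unadjusted *p* under 0.05 there were 5 stellate and 2 endothelial markers higher and 2 Kupffer cell and 2 cholangiocyte markers lower. Female-biased liver genes summed to 63.2 to 124 CPM in wild-type and 301 to 2065 CPM in knockout libraries, with 1 called lower (*Cyp2a4*) and 1 higher (*Cyp3a44*) of 12 tested with edgeR, 2 lower and 3 higher at an unadjusted *p* under 0.05, and 1 lower and 3 higher with DESeq2. Most of that sum in the knockout library 8-3 came from *Cyp3a41a* at 1244 CPM and *Cyp3a44* at 779 CPM, and *Cyp3a41a* had an adjusted *p* of 0.0837 with edgeR and 0.00529 with DESeq2. Of 13 male-biased genes 1 was called lower (*Susd4*) and 0 higher with edgeR, 3 lower and 2 higher at an unadjusted *p* under 0.05, and 2 lower and 1 higher with DESeq2. The part of these differences in the conjugation enzymes' values was not tested.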

How the data were processed

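Liver libraries were made with a directional kit and without molecular identifiers. The authors deposited raw counts per gene, which included unique and multiple alignments and were made with Bedtools 2.25.0 on mm10 with TopHat, per the study's methods and the submitters' processing notes. For the aligner's version, the annotation and the use of strand, the answer is not given in the sources used here. Deposited counts were whole numbers with unequal totals, so the quantile normalisation of the study's methods had not been applied. A library was treated as a mouse, since the study gives *n*=3 per group. The labels do not say this, so *p* values measure the spread between these samples.

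Genes with 10 or more counts in at least 3 of 6 libraries were tested in R 4.3.3 by the quasi-likelihood method of edgeR 4.0.16 on genotype alone with TMM factors, Benjamini-Hochberg adjusted over 14306 genes and called under 0.05. CPM use TMM-scaled sizes. The script was tested on simulated data. DESeq2 1.42.0, limma-voom (limma 3.58.1), other scalings and filters, replicate blocks and leaving out libraries were alternatives. Library totals were 60619938 to 133384586 counts, and standard errors of the members, which reflect the spread between replicates as well as depth, were 0.13 to 0.94 (log2).

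Members and lists were chosen with earlier results of these data known. Named members are those called by edgeR or DESeq2, those at an unadjusted *p* under 0.05, and the member of each family with the highest CPM per kilobase. Of the lists, called genes and a few of smallest *p* are named. *Gclc*, *Ugdh*, *Ces1f*, *Gusb*, *Nfe2l2*, *Glul*, *Fabp2*, *Cela1*, *Xist*, *Ddx3y* and the other Y-linked genes were added for their roles or levels. Gene positions and promoters are RefSeq's (GRCm38.p6, the mm10 assembly). All 63 members matched the annotation and 55 had a promoter window. Transcript lengths and shared 50-base stretches are from the canonical transcripts of GENCODE mouse release 39.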

Additional observations from a re-analysis of the deposited data

How the results depend on the processing

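*Gstm2* was called lower under each alternative. DESeq2 called 2 members lower, 2 higher and 442 genes in all, against 1, 0 and 63 with edgeR, and put *Tcf7l2* at −0.92 past the threshold. Library sizes alone called 7 members higher and 2992 genes, and moved the family medians to 0.44 (*Gsta*), 0.49 (*Gstk*, *Gsto* and *Gstz*), 0.29 (*Gstm*), 0.12 (*Gstp*), 0.16 (*Gstt*), 0.52 (*Mgst*), 0.57 (*Sult1*), 0.86 (*Sult2*), 0.37 (*Sult5a1* alone), 0.66 (*Ugt1*), 0.89 (*Ugt2*) and 0.70 (*Ugt3*). They also turned *Gsta3* to 0.47, *Gstm1* to 0.31, *Gstm6* to 0.13, *Gstp1* to 0.14, *Gstt1* to 0.36, *Gstt3* to 0.16, *Gstz1* to 0.54, *Sult1a1* to 0.063 and *Sult5a1* to 0.37. This scaling moved the median of all genes to 0.61. Quantile normalisation turned *Gstz1* to 0.073. Without a filter, 96 genes were called.

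Genotypes share only the label numbers 7-2 and 8-3, and the deviations of libraries with the same number correlated at 0.023 and −0.012. Pairs with unlike numbers ran from −0.13 to 0.13. With 3 libraries a group, these values cannot show whether libraries with the same number share a litter, cage or batch. The labels do not say what the numbers mark. A replicate block on the leading number called 2 members lower (*Gstm3* at −1.05 in addition) and 39 genes, and turned *Mgst1* to −0.059. A replicate block on the whole number turned *Mgst1* to −0.081.

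Leaving out each library gave 21 to 81 called genes. The log2 fold change then ran from −0.24 to 0.068 for *Gsta3*, −0.19 to 0.11 for *Gstz1*, −0.0027 to 0.16 for *Ugt1a10*, −0.40 to 0.00055 for *Sult5a1* and −0.12 to 0.28 for *Mgst1*. The lowest count of genes came without the wild-type library 8-1. The cause of these changes was not tested. With 3 libraries a group, 2 of the 9 tested *Ugt2* genes had an unadjusted *p* under 0.05 with edgeR, and 0 were called.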
